A study of Caenorhabditis elegans with 2 samples.

Results

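The 9 GATA transcription factor genes elt-1, elt-2, elt-3, elt-4, elt-6, elt-7, egl-18, end-1 and end-3 of Caenorhabditis elegans were examined for binding by DAF-16, out of 19973 protein-coding genes on the nuclear chromosomes. They were taken by name from the WBcel235 annotation, and every DAF-16 peak was taken whose summit lay from 5 kb upstream of the gene to 5 kb downstream of it. This gave 13 distinct peaks of 8748 nuclear peaks. DAF-16 is the FOXO factor under insulin-like signalling, and it was mapped by chromatin immunoprecipitation and sequencing in 1 group of 2 biological replicates. The animals were whole L4 larvae of mixed sex of strain XE1464, with the background allele unc-119(ed3) III and a stable insertion for DAF-16 carrying GFP and FLAG at its C-terminus, whose promoter the labels do not give. There was no treated or mutant group, so the data show where binding was detected and how the replicates compared. Whole animals were used, so the cells in which a gene was bound cannot be told apart, and no RNA was measured that could check cell types by their markers.

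GATA factors are zinc finger proteins that recognise sites with the core from which they are named. In the worm, END-1 and END-3 specify the embryonic endoderm, after which ELT-2, with the partly redundant ELT-7, maintains the intestine throughout life. ELT-1 specifies the epidermis, ELT-3 acts in its differentiation, and EGL-18 and ELT-6 act in the seam cells and the vulva. The intestine is also a main site of DAF-16 function in lifespan, and many genes that respond to DAF-16 carry a DAF-16 associated element, CTTATCA (DAE), whose reverse complement contains the GATA site TGATAA. The DAF-16 binding element itself is GTAAACA (DBE).

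The sequences under the peaks that the results turn on come first. They are from the RefSeq WBcel235 genome, the same assembly as the ce11 build of the peak lists, on the plus strand, on which all 9 genes lie. Capitals mark the GATA site, the DAE or the DBE, read on either strand. The first is the centre of the strongest of the 13 peaks, between elt-4 and elt-2, at chrX:10477774-10477802. The second surrounds the elt-2 promoter summit, at chrX:10480736-10480886. The third lies in the first intron of the longer elt-7 transcript, at chrV:4770957-4771107, the fourth at the 3' end of end-1, at chrV:13987058-13987086, and the fifth in an intron of elt-3, at chrX:13937556-13937706.
elt-2 far upstream: ctgaaaagaatgtGTAAACAgtttattgc
elt-2 promoter: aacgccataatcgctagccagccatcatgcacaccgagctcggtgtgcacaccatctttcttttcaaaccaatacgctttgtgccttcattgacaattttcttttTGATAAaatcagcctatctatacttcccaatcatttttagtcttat
elt-7 intron: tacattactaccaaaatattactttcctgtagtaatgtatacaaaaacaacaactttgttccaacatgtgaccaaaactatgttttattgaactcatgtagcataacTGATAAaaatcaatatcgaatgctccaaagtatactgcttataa
end-1 3' end: aatgtgacagttctacTGATAAGctcttt
elt-3 intron: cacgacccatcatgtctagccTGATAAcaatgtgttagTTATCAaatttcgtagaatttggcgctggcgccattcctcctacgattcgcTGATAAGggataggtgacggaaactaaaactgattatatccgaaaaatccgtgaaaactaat

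DAF-16 peaks lay in the windows of elt-2, elt-4, elt-7, end-1, end-3 and elt-3, and none in those of elt-1, egl-18 or elt-6. The end-3 peaks were not matched in replicate 2. At least 1 peak was found in the window of 6 of the 9 members (66.7%), against 54.3% of all protein-coding genes. A peak present in both replicates, with summits within 100 bp, was found for 5 of 9 (55.6%), against 47.9% of all genes. The promoter window, from 1000 bp upstream to 300 bp downstream of any annotated transcript start, held a peak at 3 of 9 (33.3%), against 24.0% of all genes. These shares are near the background, and nothing about the family is read from the counts. Of the 13 peaks, 9 (69.2%) were matched in both replicates, against 77.3% of nuclear peaks. Their median signal was 61.5, against 107 over the nuclear peaks. The weakest 20% of nuclear peaks held 5 of the 13, of which 2 were matched in both replicates, against 45.1% of all peaks of that strength. The next 20% held 3, of which 2 were matched, against 65.9%, and all 5 stronger ones were matched. Signal is the authors' own peak score, of unstated scale, and was used only within a list.

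**Figure D1:**
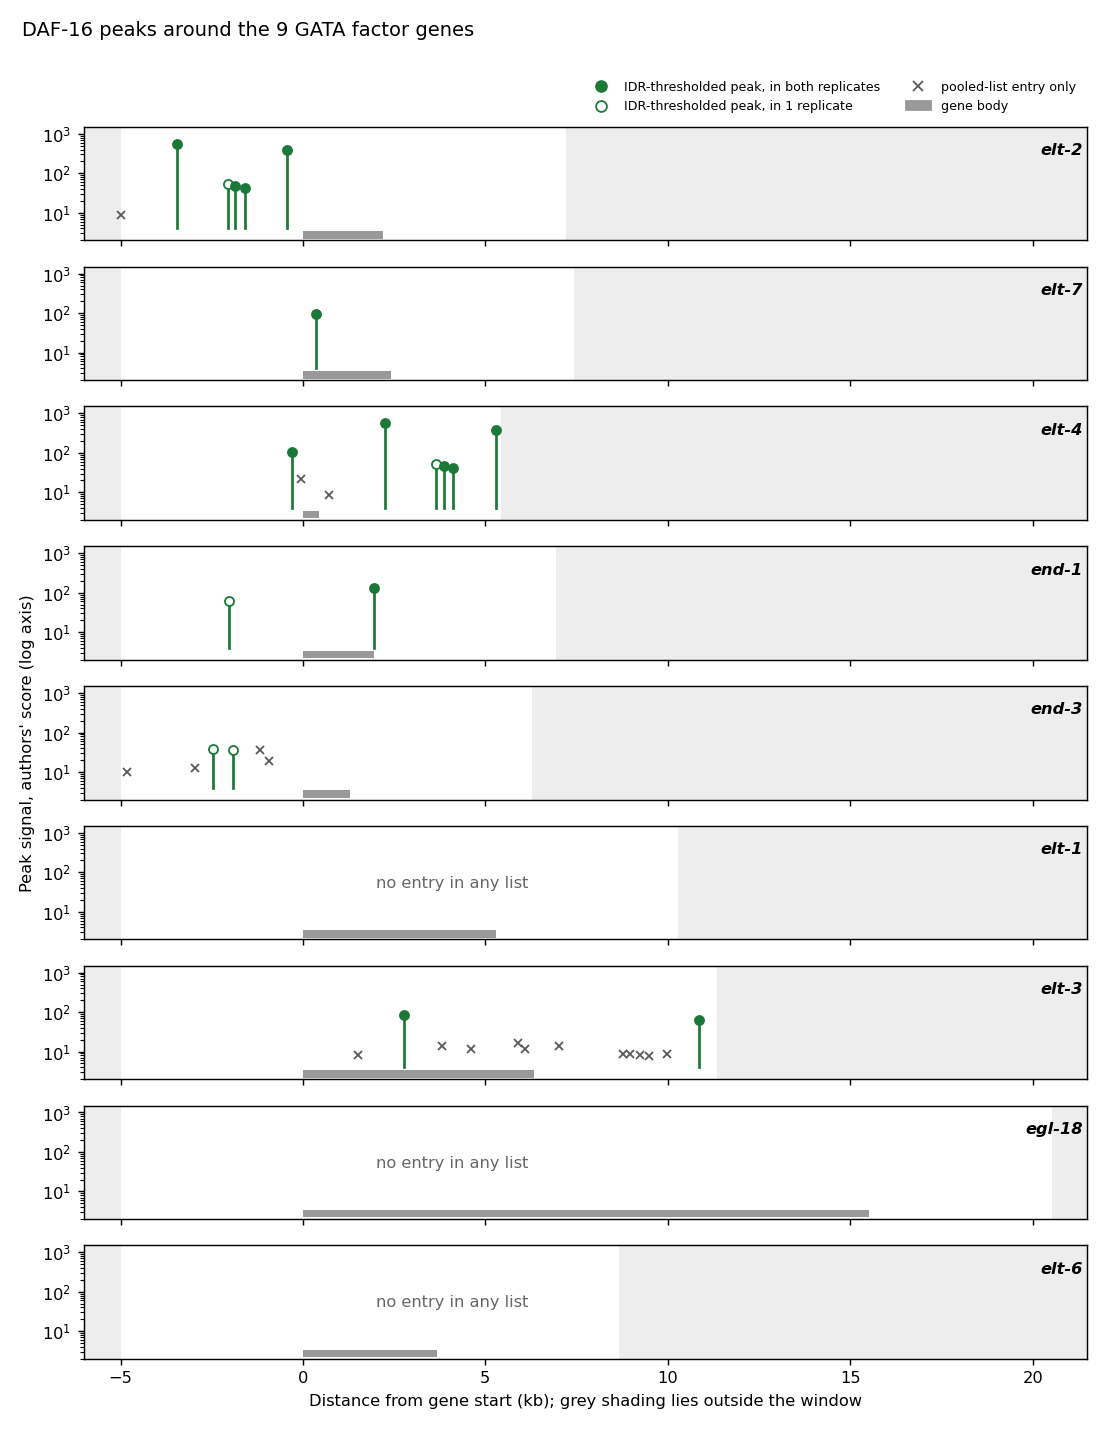
Peaks around each of the 9 GATA factor genes, by distance of the summit from the gene start in kb (x axis) and the authors' peak score in the pooled list (y axis, log scale). Circles are IDR-thresholded peaks, filled where both replicates held them, crosses are entries of the pooled list alone, grey bars are gene bodies and shading lies outside the window. The tall peaks stand upstream of elt-2 and recur in the overlapping window of elt-4, while elt-1, egl-18 and elt-6 have no entry.

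The members' peaks were ranked in 4 lists: 8777 peaks that passed a threshold on IDR (irreproducible discovery rate, which scores how well replicates rank the same peak), 22466 pooled entries, 16146 entries of replicate 1 and 21378 of replicate 2, background regions included. Read depth is unknown, since the files hold no read counts. A control file is named among the inputs of the lists, and its reads were not analysed here. By the strongest entry in the window the order was elt-2 and elt-4, which share that peak, then end-1, elt-7, elt-3 and end-3. The same order held in replicate 2's list, and in replicate 1's list end-3 came before elt-3.

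The master intestinal gene elt-2 had the strongest promoter peak of the 3 members with one, and it shared the strongest window peak with elt-4. Its window held 5 peaks, a number reached or passed by 5.31% of protein-coding genes, at 0.41 peaks per kb. The overlapping window of elt-4 held 6, reached by 2.78% of genes, at 0.575 per kb, against a median of 0.0684 per kb over all genes. All 5 lay upstream. The strongest, 3452 bp upstream of the start, had a signal of 561 and ranked 144 of 8777. In replicate 1 it had a signal of 333 and ranked 177, and in replicate 2 it had 219.5 and ranked 166. It thus stood within the top 1.64% of the thresholded list, the top 1.1% of replicate 1 and the top 0.776% of replicate 2. Of the 10843 genes with a peak in the window, 96.9% had a weaker strongest peak.

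This far upstream summit lies at 10477788 of chromosome X, in the annotated 3' UTR of C39B10.7 (WBGene00164973, 10476873 to 10477891, plus strand), the 1 protein-coding gene between elt-4 and elt-2. The start of C39B10.7, 915 bp away, is the nearest to it, so the distance rule alone does not tie the peak to elt-2. It is also 1829 bp past the 3' end of elt-4. A DBE was centred 2 bp from the summit, as the first sequence shows, and a GATA site 60 bp away. It was the only one of the 13 peaks with a DBE within 75 bp.

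The promoter peak of elt-2 (WBGene00001250, chromosome X, 10481240 to 10483441) was the second strongest. Its summit, at 10480811 in intergenic sequence, lay 429 bp upstream of the single annotated start. The signal was 383 in the thresholded list (rank 485), 229 in replicate 1 (rank 535) and 148 in replicate 2 (rank 538), with the replicates' summits 11 and 4 bp from it. Among the 4787 genes with a promoter peak, 94.6% had a weaker one. It held 1 GATA site, 32 bp from the summit, and neither a DAE nor a DBE within 75 bp.

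Between these lay 3 weak peaks, 2061, 1851 and 1602 bp upstream of elt-2. Their signals were 52.9, 47.2 and 41.8, below the nuclear median of 107. The peak 2061 bp upstream was matched in replicate 2 alone (signal 15.4), and the nearest replicate 1 summit was 211 bp away, at the neighbouring peak. That neighbour, 1851 bp upstream, was scored 39.8 in replicate 1 and 10.5 in replicate 2, and ranked in the top 32.5% and the top 51.6% of those lists. The peak 1602 bp upstream had 22.3 in replicate 1 and 31 in replicate 2. All 3 held a GATA site, and in the middle one a DAE lay at the summit itself. Downstream of elt-2 the next thresholded summit was 41221 bp away, with a signal of 84.4.

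**Figure D2:**
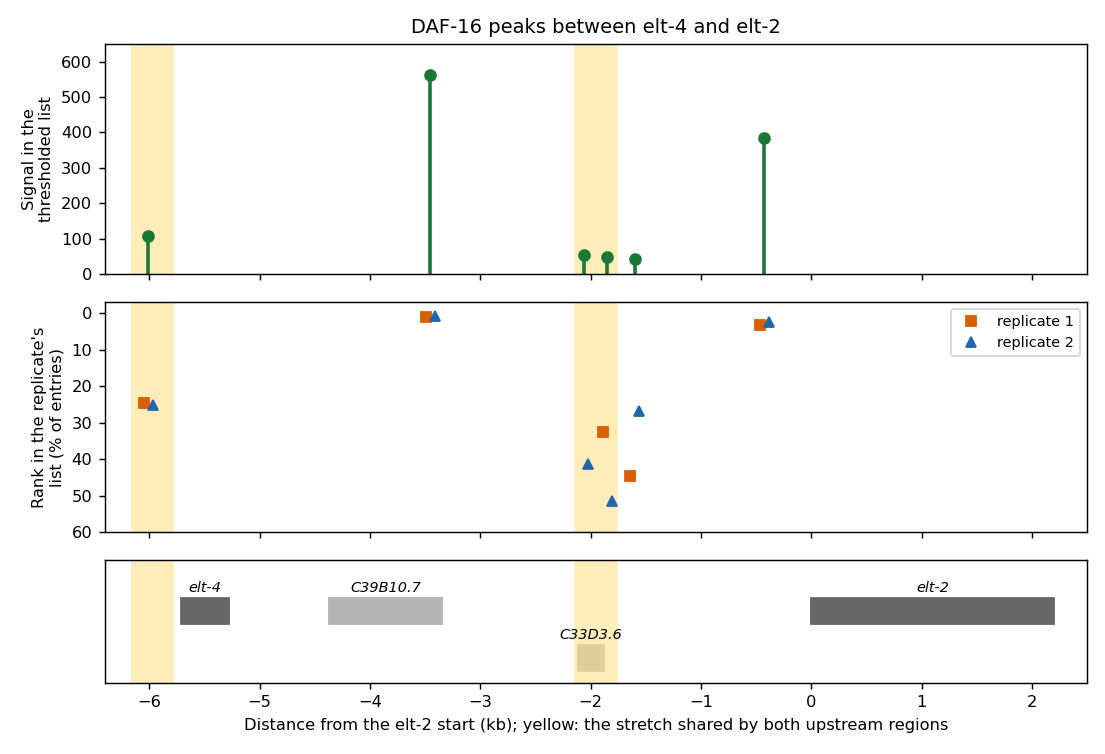
The interval from elt-4 to elt-2 by distance from the elt-2 start in kb. The upper panel gives each peak's signal in the thresholded list, the middle panel its rank in each replicate as a percent of that list's entries with the strongest at the top and markers set slightly apart sideways, and the lower panel the annotated genes. The peaks with signals of 561 and 383 rank near the top in both replicates, and the yellow bands mark the stretch that both upstream regions share.

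The small gene elt-4 (WBGene00001252, 10475527 to 10475959), known as a close relative of elt-2 in the intestine without an established function, had a promoter peak of its own. Its summit at 10475231 lay 296 bp upstream of the start, with a signal of 108 (rank 4380), 59.1 in replicate 1 (rank 3981) and 34 in replicate 2 (rank 5359). These ranks are in the top 24.7% of replicate 1 and the top 25.1% of replicate 2. The other 5 of the 6 peaks in its window are those of elt-2, since 5280 bases separate the genes. The elt-2 promoter peak entered the elt-4 window 148 bp inside the edge, and the elt-4 promoter peak stayed outside that of elt-2, 6009 bp upstream of its start.

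The elt-4 promoter peak and 2 of the weak elt-2 upstream peaks lay in a stretch of sequence that the upstream regions share. A local alignment paired 391 bases at chrX:10475074-10475464, from 453 to 63 bp upstream of elt-4, with 402 bases at chrX:10479085-10479486, from 2155 to 1754 bp upstream of elt-2. Of 402 aligned columns 317 were identical (78.9%). Over the 78 pairs among the 13 peaks, this pair of summit windows (the elt-4 promoter and the peak 2061 bp upstream of elt-2) had the highest alignment score, 62, with the next at 16 and the median at 10. The 120 columns around the elt-4 summit hold 97 identical bases and are shown for both sides, at chrX:10475171-10475289 and chrX:10479184-10479303, with identical bases in capitals.
elt-4 upstream: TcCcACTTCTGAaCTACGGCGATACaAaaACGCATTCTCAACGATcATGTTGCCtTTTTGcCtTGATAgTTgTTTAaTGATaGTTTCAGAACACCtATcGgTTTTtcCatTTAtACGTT
elt-2 upstream: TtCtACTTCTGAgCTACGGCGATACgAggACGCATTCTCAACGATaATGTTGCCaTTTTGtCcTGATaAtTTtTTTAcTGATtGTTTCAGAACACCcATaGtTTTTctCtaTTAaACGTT

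The 2 copies differed in their summits as well as in their letters. The base aligned with the elt-4 summit was 65 bp from the nearest elt-2 summit. The DAE at the summit 1851 bp upstream of elt-2, at 10479386 to 10479392, has a counterpart with the same letters in the elt-4 copy at 10475367 to 10475373, which is outside the 75 bp around the elt-4 summit. Within those 75 bp the elt-4 peak held none of the 3 motifs. Reads were assigned by the authors, and whether reads were shared between the copies was not tested.

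The gene elt-7 (WBGene00015981, chromosome V, 4770670 to 4773086), which acts beside elt-2 in the intestine, had 1 peak. Its summit at 4771032 lay in an intron, 362 bp downstream of the first start and 806 bp upstream of the second, so it counts as a promoter peak through the second. The signal was 93.9 (rank 4926), 56.1 in replicate 1 (rank 4148) and 40.4 in replicate 2 (rank 4618). The summits of the replicates were 65 bp and 5 bp from it. Replicate 2 listed a second entry, 29 bp upstream of the gene, with a signal of 31.7. A GATA site stood 34 bp from the thresholded summit. The strongest elt-7 peak exceeded that of 22.6% of genes with a peak in the window.

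Of the endoderm specifying pair, which acts in the embryo, end-1 (WBGene00001310, chromosome V, 13985128 to 13987074) had a reproducible peak and end-3 (WBGene00001311, 14014695 to 14015980) had none. The end-1 summit at 13987072 lay in its 3' UTR, 2 bp before the annotated end. The signal was 130.4 (rank 3617), 73.8 in replicate 1 (rank 3258) and 45.7 in replicate 2 (rank 4110). A DAE stood 5 bp from this summit. The peak runs from 13986975 to 13987180 and also covers the 3' end of the convergent gene ric-7 at 13987164, so it cannot be ascribed to end-1 alone. A second peak 2025 bp upstream of end-1 had a signal of 61.4 and 27.8 in replicate 2, with a DAE 66 bp from its summit, and the nearest replicate 1 summit was 3951 bp away.

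The end-3 peaks were the weakest of the family. They lay 2480 and 1930 bp upstream, with signals of 38.3 and 36.7 against a lowest signal of 35.4 in the thresholded list. Replicate 1 had 50.5 and 12.5, and the nearest replicate 2 summits were 345 and 845 bp away. Both stood at the start of aip-1, the first 118 bp upstream of it and the second in its coding sequence, and held none of the 3 motifs. An entry of the pooled list 1172 bp upstream of end-3, with a signal of 35.1, fell just short of the thresholded list although both replicates held it, with 8.52 and 17.1. The strongest end-3 peak exceeded that of 1.03% of genes with one.

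**Figure D3:**
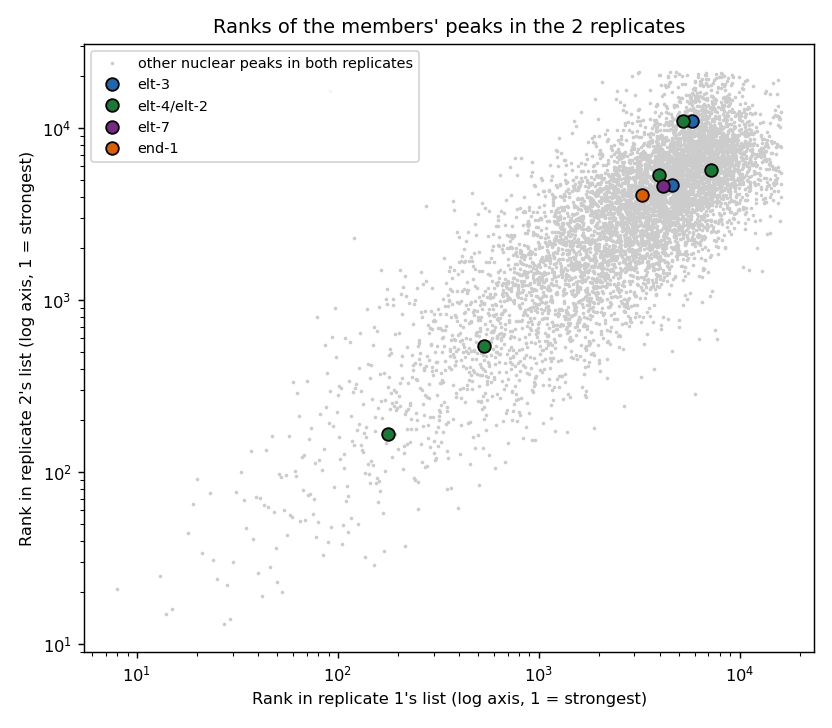
Ranks of nuclear peaks found in both replicates, replicate 1 on the x axis and replicate 2 on the y axis, both on log scales with 1 as the strongest. Grey dots are the other nuclear peaks and coloured circles the 9 members' peaks that both replicates held. Those at 177 and 166, and at 535 and 538, are the 2 strong peaks upstream of elt-2, and the other 7 begin at rank 3258 in replicate 1 and rank 4110 in replicate 2.

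Among the epidermal members, elt-3 (WBGene00001251, chromosome X, 13934874 to 13941216) alone had peaks. The stronger lay in an intron at 13937631, 2757 bp from the first start and 1112 bp upstream of the nearest internal start, just beyond the promoter window. Its signal was 85.2 (rank 5312), 49.1 in replicate 1 (rank 4596) and 39.6 in replicate 2 (rank 4701). It was matched at summit offsets of -70 bp in replicate 1 and 0 bp in replicate 2. It held 3 GATA sites, the most of the 13 peaks, 1 of them within a DAE 17 bp from the summit. The second peak, 4505 bp past the 3' end, had a signal of 61.5, with 33.9 in replicate 1 and 10.5 in replicate 2. It overlaps a pair of non-coding RNA genes and is nearest to the start of the Argonaute gene alg-1, and a further peak of 66 stood 5280 bp past the end, outside the window. The elt-3 window spans 16343 bp, against a median of 12026 bp over all genes. The pooled list held 13 entries in it, a number reached by 3.37% of genes, a share that takes no account of window length. Of the 11 below the threshold, with signals of 7.51 to 16.9, none was matched in both replicates.

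The windows of elt-1 (WBGene00001249, chromosome IV, 9614995 to 9620280), egl-18 (WBGene00001186, 1902322 to 1917840) and elt-6 (WBGene00001253, 1917977 to 1921643) held no entry in any of the 4 lists. Such empty windows were found for 31.7% of all protein-coding genes, so 3 of 9 (33.3%) is near the background. That share takes no account of window length, which was 25519 bp at egl-18 against a median of 12026 bp. The pair egl-18 and elt-6, separated by 136 bases, are neighbours and not independent. Their nearest thresholded summits were far off: 35537 bp from egl-18 and 31734 bp from elt-6, distances reached by 5.26% and 6.79% of genes. That of elt-1 was 12626 bp upstream, with a signal of 150.3, nearest to the amino acid transporter gene aat-1, a distance reached by 24.6% of genes. The median over all genes was 3965 bp.

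**Figure D4:**
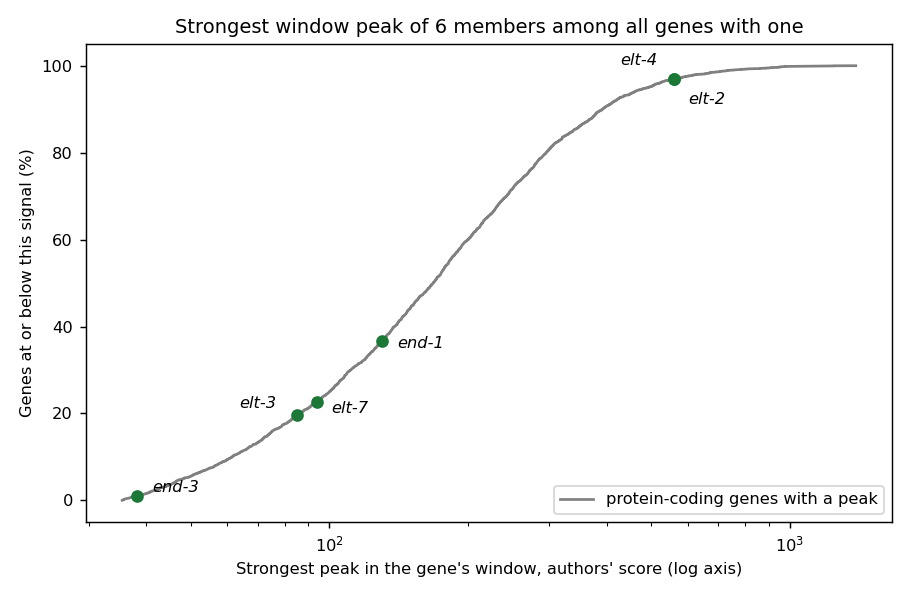
Cumulative share of the 10843 protein-coding genes with a peak in the window (y axis, percent) by the authors' score of their strongest peak (x axis, log scale), with 6 members marked. The shared elt-2 and elt-4 peak lies near the top of the curve, end-1, elt-7 and elt-3 lie in its lower part and end-3 at its foot.

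GATA sites stood at most of the members' summits, and at DAF-16 summits in general more often than at their flanks. TGATAA, sought on both strands within 75 bp, stood at 9 of 13 members' peaks, against 42.5% of nuclear peaks and 15.6% of their flanks, taken equally wide with centres 500 bp to either side. Of the flanks of the 13 peaks, 10 of 26 held it. Some of these flanks, among the weak peaks upstream of elt-2 and at end-3, held the summit of another of the 13 peaks. A GATA site stood at 49.3% of the stronger 50% of nuclear peaks, which include 4 of the 13, and at 35.6% of the weaker ones. The DAE stood at 4 of 13, against 21.8% of nuclear peaks and 3.39% of their flanks, and each DAE counts as a GATA site as well. The DBE stood at 1 of 13, against 8.94% of nuclear peaks and 1.95% of flanks. Among the nuclear peaks ranked in the first 500, 61.9% held a GATA site, 30.8% a DAE and 25.4% a DBE. Of the 2 members' peaks there, both held a GATA site, neither a DAE and 1 a DBE. The elt-4 promoter peak, the pair at end-3 and the downstream elt-3 peak held no match.

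**Figure D5:**
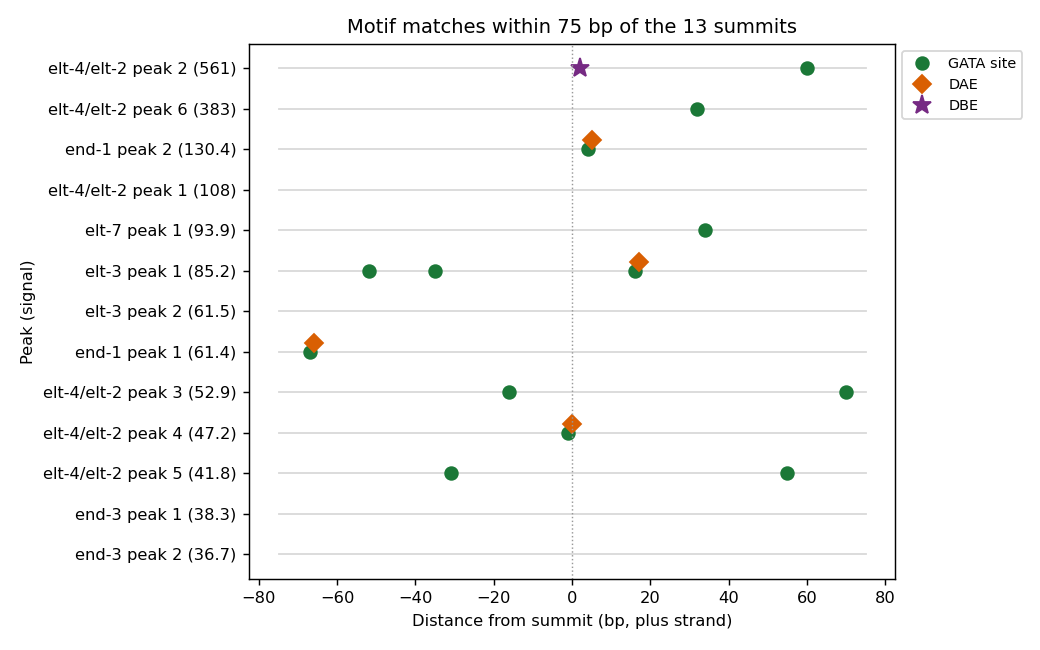
Matches to the GATA site, the DAE and the DBE within 75 bp of each of the 13 summits, by distance in bp on the plus strand (x axis), with peaks in order of signal from the top (y axis). The DBE stands at the centre of the strongest peak, and a DAE lies within 5 bp of the summit at end-1 and at the peak 1851 bp upstream of elt-2.

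The motif letters were also present in the windows without a peak. GATA sites stood at 2.95 per kb in the elt-2 window, 2.2 in that of elt-4, 1.9 in that of elt-3, 1.42 in those of end-1 and end-3 and 0.805 in that of elt-7. The windows without a peak held 1.44 per kb at elt-1, 1.18 at egl-18 and 1.24 at elt-6, against 1.05 per kb over the nuclear chromosomes. The range with a peak thus included the range without one. The elt-1 window, without a peak, was above those of end-1, end-3 and elt-7. The DAE stood at 0.0886 to 0.492 per kb in the windows with a peak, and at 0.196 around elt-1, 0.47 around egl-18 and 0.439 around elt-6, against 0.186 over the chromosomes. The DBE stood at 0 to 0.246 per kb in the windows with a peak, and at 0.131 around elt-1, 0.118 around egl-18 and 0 around elt-6, against 0.119 over the chromosomes. A match in these letters is a description and shows neither binding nor its lack.

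Lists of genes that act with the family were counted in the same way. The lists were chosen with earlier results of these data known, so their shares cannot be read as independent of these data. Genes known to respond to DAF-16 were not kept out of the lists. The lists also differ in the kinds of gene they hold, and their shares were not compared with each other. Of 14 intestinal genes downstream of ELT-2, 11 had a promoter peak (78.6%), against the 24.0% given above for all genes. The strongest were those of the lysozyme gene lys-8 (signal 525), the ferritin gene ftn-1 (487) and the cysteine protease gene cpr-6 (355), each with a GATA site within 75 bp. Those without a promoter peak included ges-1, a gut esterase gene, and mtl-2. The ges-1 window held a peak of 308, and the mtl-2 window held none. Of 12 regulators and products of hypodermis and seam, 2 had one (16.7%), rnt-1 (193) and blmp-1 (168), and apr-1 and bro-1 were among the 10 without. Of 9 endoderm specification genes 5 had one, led by wrm-1 (107), sys-1 (100.2) and skn-1 (68.9). The gene window held a peak at 13 of the 14 intestinal, 4 of the 12 hypodermis and seam and 9 of the 9 endoderm genes. Over all genes the window share was 54.3%.

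Of 4 other genes with GATA-type zinc fingers, all 4 had a peak in the window matched in both replicates, and 2 had a promoter peak. The shares over all genes were 47.9% and 24.0%. The endomesoderm genes med-1 and med-2 had no promoter peak, and the strongest peaks in their windows had 147 and 78.8. The chromatin factor genes lin-40 and egl-27 had promoter peaks of at most 73.3 and 61.1, the second without a counterpart in replicate 2, although the egl-27 window held a peak of 370.3. Of 6 genes for partners of DAF-16 or factors at GATA sites, all 6 had a promoter peak, led by nhr-49 (312), pqm-1 (209) and hlh-30 (135). Among genes of other tissues, promoter peaks were found at 0 of 4 in muscle, 2 of 4 in neurons, 0 of 4 in the germline and 0 of 2 in the pharynx. In the wider gene window, peaks were found at 1 of 4, 2 of 4, 3 of 4 and 1 of 2 of them in turn. The shares over all genes were 24.0% for the promoter and 54.3% for the window. These lists are small, and their counts are descriptions.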

How the data were processed

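Peak lists of DAF-16 ChIP-seq in 2 biological replicates were used as the authors deposited them on build ce11, with each peak's summit and a signal score of unstated scale. Per the README files among the deposits, the lists derive from alignments and a control file, and the thresholded list from the pooled list and both replicates' lists. For the aligner, peak caller, versions and threshold: not given in the sources used here. Summits were joined to the Ensembl release 115 annotation of WBcel235, whose chromosome lengths held every peak end. A summit was matched to the nearest in a replicate's list within 100 bp. The chromatin of the replicates came from cultures whose separation is not described. No test was run: there is 1 group, and counts stand beside the same over 19973 genes. The members and lists were chosen with earlier results of these data known. Named genes were the 9 members, genes nearest to or overlapping their peaks, and genes nearest to summits outside their windows. From each list, up to 3 genes with the strongest promoter peak and up to 2 without were also named. Pairs of peak sequences were aligned locally (match 1, mismatch -1, gap opening -3, gap extension -1). The code was tested on simulated peaks. Python 3.11.15, numpy 2.4.6, pandas 2.3.3, Biopython 1.88 and matplotlib 3.10.9 were used.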

Additional observations from a re-analysis of the deposited data

How the results depend on the processing

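Of 39 alternative counts, 30 stayed within 1.5 times the reported one, among them every count of motifs (7 to 10 peaks with a GATA site, 3 to 6 with a DAE and 1 with a DBE for windows of 50 and 150 bp). In the stronger 50% of peaks, 3 members had a peak in the window, through 4 peaks, all 4 matched in both replicates. With the pooled list in full, the windows held 30 peaks and 5 members had a promoter peak. With windows of 1000 bp on either side there were 5 peaks, all 5 matched, and with a match distance of 50 bp 5 peaks were matched. At 50 bp the elt-7 peak, the elt-3 peaks and the peak 1602 bp upstream of elt-2 were no longer matched in both replicates. This left elt-7 and elt-3 without a matched peak. With the promoter window from 2000 bp upstream to 500 bp downstream, 5 members had a promoter peak. With the 5'-most start alone, chosen after seeing the data, 2 members had one, since elt-7 was lost. Leaving out either replicate, by taking as many of the strongest peaks of the other, left 6 members with a peak, 11 to 12 peaks, 8 peaks matched in both and 3 to 4 members with a promoter peak. Matching then still used both lists. The share of all genes was not computed for the alternative counts of members, so these counts cannot be set against a background. The strongest peak, shared by the elt-2 and elt-4 windows, ranked 144, 177 and 166 in the thresholded and the replicates' lists. The strongest entry in the end-3 window ranked 8432, 4486 and 8312, in replicate 2 at a different summit. No paired analysis was possible because there is 1 group. Depth is unknown, so no limit of detection can be given for the 3 members without an entry.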

Other observations

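Between end-1 and end-3, which are 27620 bases apart, lay 7 thresholded peaks. Of these, 5 were nearest to a start of the neuronal gene ric-7, with signals of 40.4 to 78.5, and 2 to aip-1, the 2 peaks in the end-3 window. The single elt-7 peak stood alone. The next thresholded summit upstream lay 28191 bp before the start of elt-7, near the glucuronosyltransferase gene ugt-61 (signal 104). The next downstream lay 51101 bp past the end of elt-7, near adss-1 (signal 108). Of the 2 pooled entries close to elt-4 that missed the thresholded list, 1 lay 67 bp upstream of its start with a signal of 21.2, within the stretch shared with elt-2, and was matched in replicate 1 alone (signal 4.99).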
